A study of Mus musculus with 6 samples.

Results

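Tubulins are the building blocks of microtubules, the hollow filaments that form the mitotic spindle and carry cargo through the cell. An alpha and a beta tubulin join into a dimer, and a mammal has several genes, or isotypes, for each. Most isotypes differ little along the body of the protein and most in the last residues, a tail rich in glutamate that projects from the filament and is modified after translation. Some isotypes are made in nearly every dividing cell, and others mainly in neurons, testis or muscle. The 10 genes described here are Tubb3, Tubb2a, Tubb2b, Tuba1a, Tubb5, Tuba1b, Tuba1c, Tubb6, Tuba8 and Tuba4a, found by symbol among 29209 entries of the authors' deposited table. They were proposed with earlier results of this comparison known, that is, selected on the folds and adjusted p-values given below, so those values are a description and not an independent test.

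The study compared tumours with and without withdrawal of an overexpressed microRNA. All 6 samples were subcutaneous tumours in NCr nude mice, raised from injected spleen cells of diseased mir-155LSLtTA mice, which overexpress miR-155 under doxycycline control. In 3 samples the mouse had eaten chow with doxycycline (DOX, 2.3 mg/kg), which turns the transgene off, for 16 hours before harvest, and in 3 it had received none. The nude host lacks a thymus and keeps its other stromal and myeloid cells, and no tumour lacking the transgene was given DOX, so an effect of the drug and one of microRNA loss cannot be told apart. Whether the samples of one group are separate animals is not stated in the labels, and the p-values may then reflect technical spread only.

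The authors' deposited table gives for each gene a linear fold, a p-value and an adjusted p-value, with no value per sample, no group mean and no depth. Levels of the isotypes in each tumour, and their order of abundance, are therefore not given here. The numerator of the fold is not stated. It is read here as DOX over no DOX, and every direction below turns round if the authors divided the other way. The entry for the BIC noncoding mRNA, the host transcript of miR-155, looked up after the results were known, had a log2 fold of -3.20 under this reading in the authors' deposited table (unadjusted p = 0.0495, adjusted p = 0.222), which did not pass. It may not measure the transgene, so it does not settle the direction. A gene was called at an adjusted p under 0.05. Of 18543 entries with an adjusted p in the authors' deposited table, 5.61% were called lower and 5.72% higher, and the median log2 fold over the 15784 with a finite fold was 0.17.

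The stretch that encodes the tail is shown for a few isotypes, because it sets Tubb3, Tuba8 and Tuba4a, which fell the most, beside the general Tubb5 and the uncalled Tubb2a. Each line gives the last 20 codons before the stop, 5′ to 3′, from GENCODE transcripts of build GRCm38, with the glutamate codons GAA and GAG in capitals.
Tubb3: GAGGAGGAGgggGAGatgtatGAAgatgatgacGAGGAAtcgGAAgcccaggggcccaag
Tubb5: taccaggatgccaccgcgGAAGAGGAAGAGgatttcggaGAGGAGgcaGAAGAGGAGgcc
Tubb2a: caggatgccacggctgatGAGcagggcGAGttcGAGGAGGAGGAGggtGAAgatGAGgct
Tuba8: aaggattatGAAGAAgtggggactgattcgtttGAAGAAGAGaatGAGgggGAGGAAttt
Tuba4a: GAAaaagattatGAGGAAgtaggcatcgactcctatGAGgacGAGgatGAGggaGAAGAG
These stretches hold 8 glutamate codons in Tubb3, Tubb2a, Tuba8 and Tuba4a and 9 in Tubb5. Most alpha tubulins end in a tyrosine, the one removed and put back in the cycle of detyrosination. Tuba8 ends in TTT, a phenylalanine codon. Tuba4a ends in GAG, so its product is made without the tyrosine.

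With DOX 7 of the 10 isotypes fell and none rose in the authors' deposited table, where 5.61% of all tested entries were called lower. The falls ran from a log2 fold of -1.30 for Tuba1a to -7.87 for Tubb3 in the authors' deposited table. Tubb2a, Tubb2b and Tubb6 were not called, and all 3 had folds above 1 in the authors' deposited table, 1 of them, Tubb2b, at an unadjusted p under 0.05. The median over the 10 isotypes was -1.75 on the log2 scale, against 0.17 over all genes with a finite fold in the authors' deposited table. All 10 isotypes were tested and had a finite fold, so none was lost to a filter on low values. That does not show that their counts were ample. With no level given, how low the counts behind the folds of Tubb3 and Tuba8 were is unknown.

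**Figure D1:**
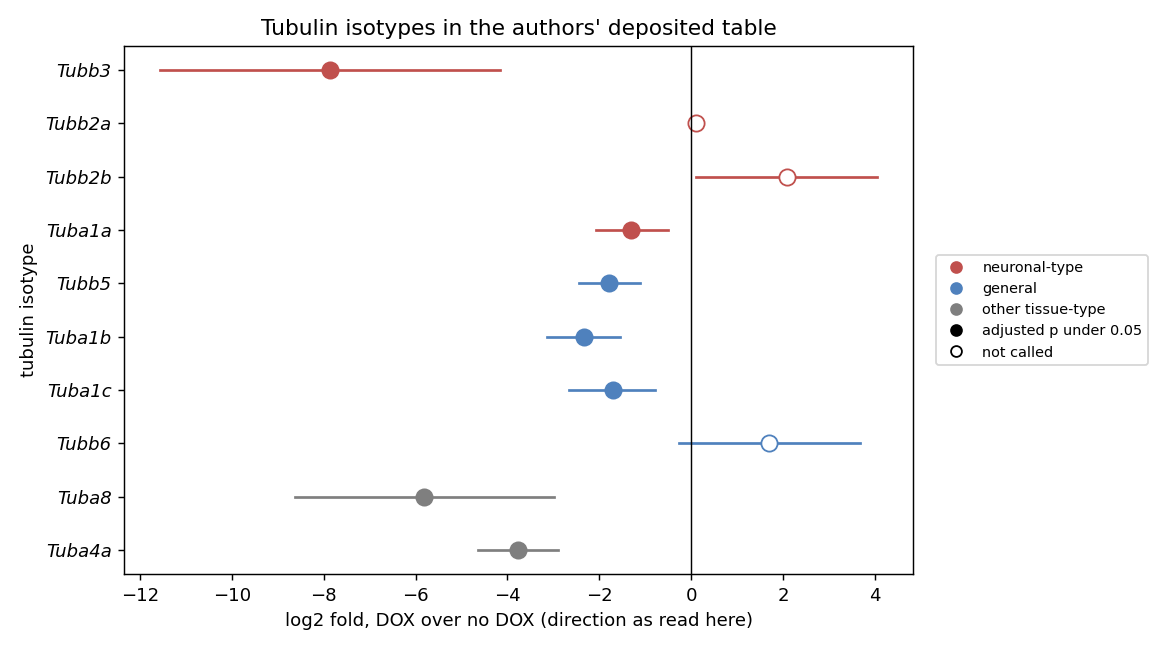
Log2 fold of each tubulin isotype (rows) in the authors' deposited table, read as DOX over no DOX, with filled points for an adjusted p under 0.05, open points for genes not called, and colours for the class. Lines span the 95% range implied by each fold and its p-value (none for Tubb2a). Tubb3 and Tuba8 lie farthest left with long lines, while Tuba1a, Tuba1b, Tuba1c and Tubb5 lie between -1.30 and -2.34 with short ones.

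The general isotypes are the ones that supply the spindle and the interphase array of most dividing cells. Tubb5, the main beta tubulin of many proliferating cell types, fell to 0.291 of its no DOX level in the authors' deposited table, a log2 fold of -1.78 (adjusted p = 2.06e-05). Tuba1b, its widely expressed alpha counterpart, fell further, with a fold of 0.198 and a log2 fold of -2.34 by the authors' deposited table (adjusted p = 1.31e-06). Tuba1c, another general alpha tubulin, had a log2 fold of -1.71 by the authors' deposited table (adjusted p = 0.00637). The 3 falls thus lie within less than 1 log2 unit of each other. Tubb6, a broadly expressed and divergent beta isotype, stood apart from them with a log2 fold of 1.70 by the authors' deposited table (adjusted p = 0.329), which did not pass.

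The neuronal-type isotypes did not move as a block. Tubb3, the class III beta tubulin used as a marker of neurons and also made by many tumour cells, fell to 0.00429 of its no DOX level in the authors' deposited table, a log2 fold of -7.87 (adjusted p = 0.00108). This was the lowest log2 fold among the 15784 finite ones in the authors' deposited table. A further 579 tested entries had a listed fold of 0, which lies lower, and 2180 an infinite fold, and none of these is ranked. Tuba1a, the alpha isotype of developing neurons whose mutation causes lissencephaly in humans, fell to a lesser extent, with a fold of 0.407 and a log2 fold of -1.30 by the authors' deposited table (adjusted p = 0.0170). Tubb2b, a beta isotype whose mutation causes cortical malformations in humans, had a log2 fold of 2.08 by the authors' deposited table (unadjusted p = 0.0385, adjusted p = 0.188). Tubb2a, its near-identical neighbour, had a fold of 1.08 and a log2 fold of 0.11 by the authors' deposited table (adjusted p = 1.00). Of the 4 neuronal-type isotypes, then, 2 were called lower and 2 were not called, and Tubb2b and Tubb2a both had folds above 1 in the authors' deposited table.

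Tuba8 and Tuba4a belong to neither class. Tuba8, a divergent alpha tubulin found in testis, heart and skeletal muscle, fell to 0.0179 of its no DOX level in the authors' deposited table, a log2 fold of -5.81 (adjusted p = 0.00162) and the 6th lowest of all finite folds. Tuba4a, the alpha isotype made without a final tyrosine, fell to 0.0735 of its no DOX level in the authors' deposited table, a log2 fold of -3.77. Its adjusted p of 7.66e-14 was the 7th smallest of the 18543 in the authors' deposited table. Of the 10 isotypes it is the one with the smallest p.

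The size of a fold and its precision did not go together among the isotypes. A rough standard error can be read back from a fold and its p-value by dividing the size of the log2 fold by the normal deviate that the p stands for, which takes the test as if it were normal and fails for p-values near 1. On this scale the implied standard error from the authors' deposited table was 1.89 log2 units for Tubb3 and 1.43 for Tuba8. It was 0.34 for Tubb5, 0.40 for Tuba1a and Tuba1b, 0.48 for Tuba1c and 0.45 for Tuba4a from the authors' deposited table. The implied 95% range ran from -11.56 to -4.17 for Tubb3 and from -8.62 to -2.99 for Tuba8, from the authors' deposited table. Those 2 ranges overlap each other, and both overlap that of Tuba4a, -4.64 to -2.89. The range of Tuba8 also overlaps that of Tuba1b, -3.13 to -1.55. Tubb2b and Tubb6 had implied standard errors of 1.00 and 1.01 from the authors' deposited table, and the median over 13930 tested entries with a p up to 0.9 was 0.61. The implied standard errors of the general isotypes that fell were therefore below that median, and those of Tubb3 and Tuba8 above it. Being read from the p-value, they do not show how surely shared reads were divided among the genes.

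Set class against class, the neuronal-type isotypes had a median log2 fold of -0.60 and the general ones of -1.75, a difference of 1.15 from the authors' deposited table, with 4 genes in each. The means ran the other way, at -1.74 for the neuronal-type and -1.03 for the general isotypes, a difference of -0.71 from the authors' deposited table. Without Tubb3 the neuronal-type median was 0.11 and the difference 1.85, from the authors' deposited table. With Tuba8 and Tuba4a counted as neuronal-type the median of that class was -2.53 and the difference -0.79. The classes thus showed no difference whose direction held across these choices, and genes of a class are not replicates, so no test was made. The spread within the neuronal-type class, from -7.87 to 2.08, was wider than that within the general class, from -2.34 to 1.70. That wider spread rests on Tubb3 alone, as without it the neuronal-type folds ran from -1.30 to 2.08.

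How far the isotypes can be separated depends on sequence they share, since a read from a shared stretch fits several genes. Of all 50-base stretches of its GENCODE transcript, Tubb3 shared 0% with any other gene, Tubb6 0% and Tubb5 0.115%. The same share was 75.5% for Tuba1a, 83.1% for Tuba1b and 61.0% for Tuba1c, with 52.0%, 64.6% and 59.8% of stretches found in another isotype of the set. It was 49.6% for Tubb2a and 39.3% for Tubb2b, with 45.6% and 33.4% found in another isotype. The read length was not known here, and 50 bases serve as a yardstick only. The falls of Tubb3 and Tubb5 thus rest on sequence that is their own, while the division of reads among Tuba1a, Tuba1b and Tuba1c, and between Tubb2a and Tubb2b, is uncertain. Tuba1b, Tuba1a and Tuba1c follow each other on chromosome 15 with 0 coding genes between them, and Tubb2a and Tubb2b do so on chromosome 13. Tuba8 shared 14.7% of its stretches, none with the other 9 isotypes, but with the alpha tubulins Tuba3a and Tuba3b and with Gm15856. Tuba4a shared 48.8%, all of it outside the isotypes, and only 2.39% of its coding stretches, as its longest transcript overlaps the kinase gene Stk16, which lies on the other strand. Without a statement that strand was counted, reads of 2 overlapping genes cannot be told apart, and Stk16 itself had a log2 fold of 0.48 by the authors' deposited table (adjusted p = 1.00).

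**Figure D2:**
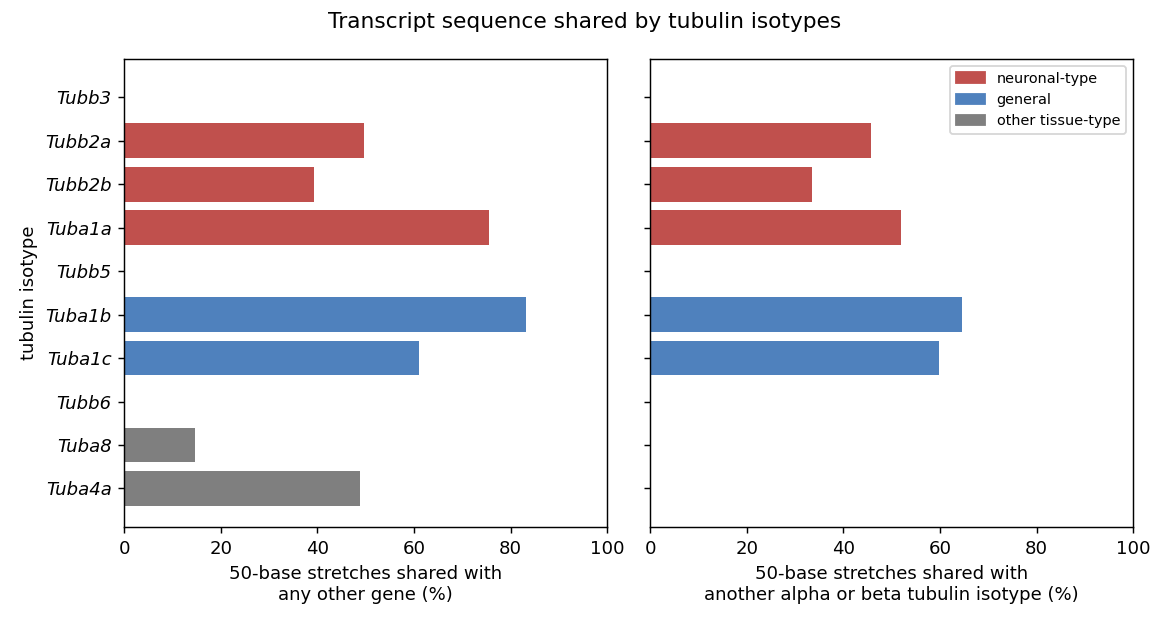
Share of each isotype's 50-base transcript stretches (rows, bars from 0 to 100%) found in any other gene (left) and in another tubulin isotype (right), coloured by class. The right panel counts only the isotypes described here and Tubb4b, and leaves out other tubulins such as Tuba3a, Tuba3b and Tubb4a. Tubb3 and Tubb6 share 0% and Tubb5 0.115%, whereas Tuba1a, Tuba1b and Tuba1c share 61.0% to 83.1% with other genes.

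The coding sequences show the same grouping. Within the alpha isotypes the encoded proteins were 89.2% to 99.6% identical, and within the beta isotypes 90.4% to 99.6%. Between the families identity was 40.6% to 42.2%. Tuba1a and Tuba1b, at 99.6% protein and 98.3% coding identity, had log2 folds of -1.30 and -2.34 by the authors' deposited table. Tubb2a and Tubb2b, at 99.6% protein and 96.5% coding identity, had log2 folds of 0.11 and 2.08 by the authors' deposited table. Tuba8 was the alpha isotype farthest from Tuba1b, at 89.5%, and Tubb3 stood at 91.4% to Tubb5 and 92.2% to Tubb6. Tubb6, the isotype of the set nearest to Tubb3 in protein sequence, had a log2 fold of 1.70 by the authors' deposited table, against -7.87 for Tubb3.

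**Figure D3:**
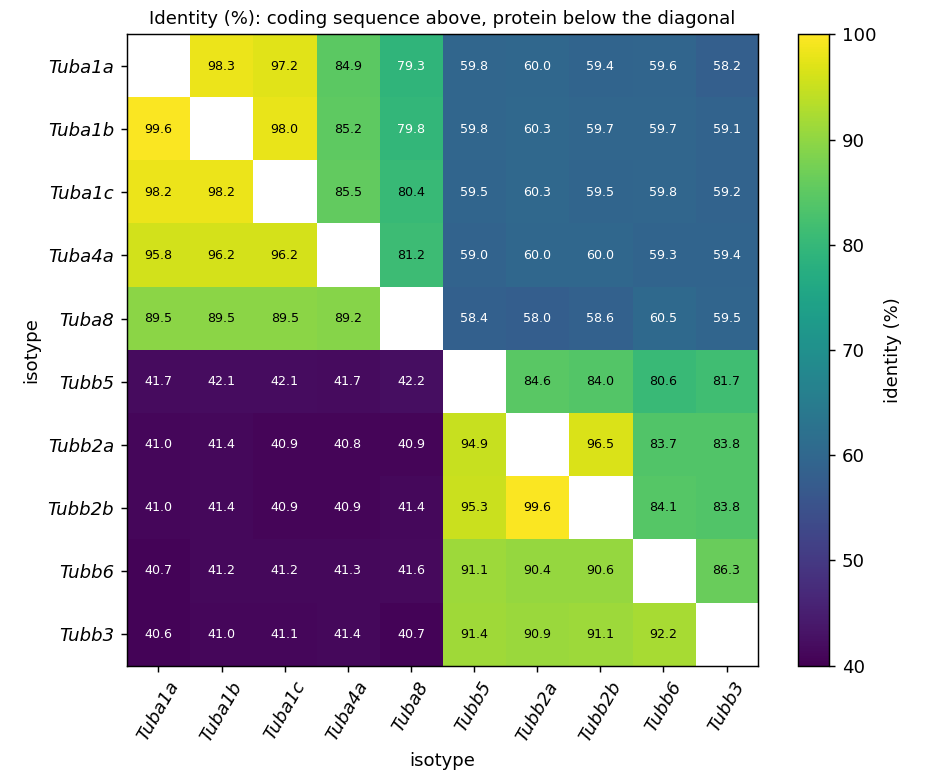
Pairwise identity in percent between the 10 isotypes (rows and columns), with coding sequence above the diagonal and encoded protein below it. The alpha and beta families form 2 blocks, with protein identities of 89.2% or more inside a block and of 42.2% or less between blocks.

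The promoters of Tubb5, Tuba8 and Tubb3 are shown because these genes fell and because the first 2 carry the E-box CACGTG, a palindromic motif bound by MYC and other basic helix-loop-helix factors. Each runs 5′ to 3′ from 250 bases before to 50 after the RefSeq start in build GRCm38.p6, with the motif in capitals. Tubb5 lies at chr17:35838252-35838551 (minus strand), Tuba8 at chr6:121210484-121210783 (plus strand) and Tubb3 at chr8:123411303-123411602 (plus strand).
Tubb5: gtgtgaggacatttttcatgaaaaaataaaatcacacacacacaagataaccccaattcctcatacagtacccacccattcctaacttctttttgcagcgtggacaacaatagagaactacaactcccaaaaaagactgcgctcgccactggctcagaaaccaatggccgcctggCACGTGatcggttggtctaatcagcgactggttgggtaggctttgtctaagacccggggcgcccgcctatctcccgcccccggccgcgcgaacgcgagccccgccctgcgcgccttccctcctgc
Tuba8: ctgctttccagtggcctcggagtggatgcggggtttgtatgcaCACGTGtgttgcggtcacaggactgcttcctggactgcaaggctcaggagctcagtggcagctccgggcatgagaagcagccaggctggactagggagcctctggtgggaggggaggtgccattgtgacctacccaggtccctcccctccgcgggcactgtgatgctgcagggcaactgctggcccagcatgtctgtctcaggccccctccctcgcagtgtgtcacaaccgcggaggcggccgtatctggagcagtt
Tubb3: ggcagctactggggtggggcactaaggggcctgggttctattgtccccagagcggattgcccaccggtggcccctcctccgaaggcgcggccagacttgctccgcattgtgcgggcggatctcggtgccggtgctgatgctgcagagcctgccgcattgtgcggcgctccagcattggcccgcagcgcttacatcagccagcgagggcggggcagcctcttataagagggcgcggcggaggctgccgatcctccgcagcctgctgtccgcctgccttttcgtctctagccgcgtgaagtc
Promoters were examined for 8 of the 10 isotypes. Tubb2b and Tubb6 were not among them, and the search left a chromosome out. Of the 8, 2 held CACGTG, where it began 75 bases before the start of Tubb5 and 207 bases before that of Tuba8. The motif reads the same on both strands, and 7.15% of 32851 mouse promoters of this length held it. The letters do not occur in this window of Tubb3, Tubb2a, Tuba1a, Tuba1b, Tuba1c or Tuba4a.

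A microRNA can lower transcripts that carry a match to its seed in the 3' UTR, though a match alone does not show that it does. The mature strand of miR-155 (RefSeq, GRCm38.p6) is shown with its seed in capitals, beside the one match found among the isotypes, in the Tubb2b 3' UTR, with the matched letters in capitals.
mmu-miR-155-5p: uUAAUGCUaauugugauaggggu
Tubb2b: cctgaagaatAGCATTAtcaataatgt
Of the 10 isotypes 1 held a match, AGCATTA beginning at base 643 of the 723 bases of the annotated Tubb2b 3' UTR, and GCATTAA was found in none. Among 11619 tested genes with an annotated 3' UTR, 11.9% held AGCATTA or GCATTAA, which share 6 letters and can overlap. Tubb2b had the highest log2 fold of the isotypes, 2.08 in the authors' deposited table, and did not pass (adjusted p = 0.188). The 7 isotypes that fell hold no match, and a match is a description of letters and not a site shown to act.

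Relatives of the isotypes moved in part. Among the other tubulin genes 10 were listed and 7 tested, of which 2 fell and none rose in the authors' deposited table. The shares over all tested entries were 5.61% lower and 5.72% higher. Tubb2c, the general beta tubulin now called Tubb4b, had a log2 fold of -1.76 by the authors' deposited table (adjusted p = 6.57e-05), close to the -1.78 of Tubb5. It shared 55.5% of its 50-base stretches with other genes, none of them isotypes described here. Tubg1, the gamma tubulin that nucleates microtubules, had one of -2.22 in the authors' deposited table (adjusted p = 1.28e-04). Tubb4, the brain isotype now called Tubb4a, had a log2 fold of 1.60 by the authors' deposited table (adjusted p = 0.452) and Tubg2 one of -2.48 (adjusted p = 0.255), and neither passed. Tubd1 and Tube1, the centriolar delta and epsilon tubulins, stood at -0.22 and -0.05 in the authors' deposited table (adjusted p = 1.00 each). Tubal3 had no finite fold and an adjusted p of 1.00, and Tubb1, the platelet isotype, Tuba3a and Tuba3b were listed with no test in the authors' deposited table.

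The calls among the partners of the tubulins are given beside the 5.61% of all tested entries called lower and the 5.72% called higher in the authors' deposited table, and nothing particular to these lists is read from them. Of 9 gamma tubulin ring complex genes 1 fell, Tubg1, and none rose, with a median log2 fold of 0.20 by the authors' deposited table. Of 16 folding cofactors 0 fell (1 at an unadjusted p under 0.05) and 1 rose, Rp2h, a regulator of the small GTPase Arl3 (log2 fold 1.76, adjusted p = 0.0124), with a median of -0.29 in the authors' deposited table. The cofactors Tbca to Tbce, which assemble the dimer, ranged from -0.73 for Tbcd to 0.94 for Tbce in the authors' deposited table, and none passed. Of 20 tubulin modifying enzymes 1 fell, Ttll12, of the tubulin tyrosine ligase-like family (-1.20, adjusted p = 0.0454), and none rose in the authors' deposited table. Ttc5, which reads nascent tubulin chains when excess dimer triggers decay of tubulin mRNA, had a log2 fold of 0.86 by the authors' deposited table (adjusted p = 0.155). Of 25 microtubule-associated genes 2 fell and none rose in the authors' deposited table. Stmn1, whose product sequesters tubulin dimers, had a log2 fold of -1.95 by the authors' deposited table (adjusted p = 9.42e-04). Tpx2, a spindle assembly factor, had one of -1.17 in the authors' deposited table (adjusted p = 0.0144).

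**Figure D4:**
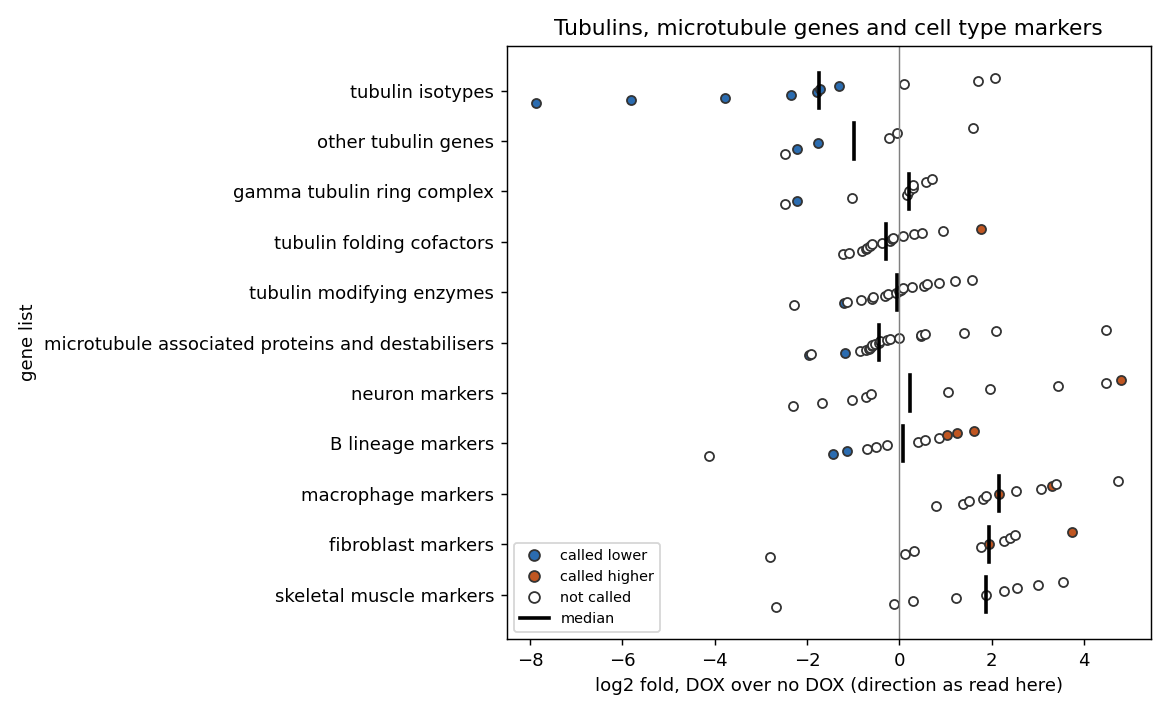
Log2 folds from the authors' deposited table, read as DOX over no DOX, for the tubulin isotypes and for lists of related genes and cell type markers (rows), each point a gene with a finite fold, filled where called, with a bar at the list's median. The isotypes have a median of -1.75, the macrophage markers of 2.16 and the neuron markers of 0.22.

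Fewer cells of a type and less RNA per cell cannot be told apart in bulk tumours, so markers of the cells a tumour could hold are set beside the isotypes. Of 13 tested neuron markers 0 fell, also at an unadjusted p under 0.05, and 1 rose in the authors' deposited table, Ncam1 (log2 fold 4.81, adjusted p = 0.0293). The finite log2 folds of the neuron markers ran from -2.30 to 4.81 in the authors' deposited table, with a median of 0.22. Syt1, Nefl, Nefm, Ina, Stmn2 and Gap43 were listed with no test in the authors' deposited table. The fold of Elavl4 was listed at 0 and those of Snap25 and Dcx as infinite there, and none of them passed. Over all tested entries 5.61% were called lower and 5.72% higher in the authors' deposited table, so a list of this size would hold few calls, and nothing is read from their number. Of 10 skeletal muscle markers, set beside Tuba8, 0 fell (1 at an unadjusted p under 0.05) and 0 rose (also 0), and their median was 1.87 on the log2 scale in the authors' deposited table.

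All 11 tested macrophage markers had folds above 1, with a median log2 fold of 2.16 and 2 called higher, and 9 fibroblast markers had a median of 1.95 with 2 called higher in the authors' deposited table. At an unadjusted p under 0.05, 8 macrophage and 4 fibroblast markers were higher and 0 of either list lower in the authors' deposited table. The 12 B lineage markers had a median of 0.07 with 2 called lower and 3 called higher in the authors' deposited table. At an unadjusted p under 0.05, 4 of them were lower and 3 higher, against 1935 and 2212 of all 18543 tested entries. The shares over all tested entries were 5.61% lower and 5.72% higher, and nothing is read from these few calls. The part of cell composition in the isotypes' folds was not tested. Length and base composition also moved with direction. The isotypes' transcripts run from 1610 to 2840 bases with 51.2% to 57.9% GC, and of 1345 other tested genes in both ranges 9.81% were called lower and 1.34% higher, against 7.57% and 4.92% of 11783 tested genes with a transcript, from the authors' deposited table. The median log2 fold was -0.31 over those 1345 genes and 0.02 over the 11783, against -1.75 for the isotypes, from the authors' deposited table. The part of length and base composition in the isotypes' folds was not tested.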

How the data were processed

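Total RNA from tumours dispersed to single cells and freed of red blood cells was made into Ribo-Zero libraries, per the labels' protocols. The submitters' processing notes name RSEM and DESeq, without versions, and build mm9, per the labels. The authors deposited one table, whose fold is a linear ratio between groups and whose p-values are unadjusted and adjusted, per the file headers. Depth is unknown. Recomputing the Benjamini-Hochberg adjustment over 18543 entries gave the deposited adjusted p-values to within 2.09e-06, and 10666 further entries have none. From the table, log2 folds, ranks, implied standard errors, counts of calls at an adjusted p under 0.05 and class medians were computed with Python 3.11.15, numpy 2.4.6, pandas 2.3.3 and scipy 1.17.1. The adjustment code was tested on simulated data.

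The members and gene lists were chosen with earlier results of these data known. Neuronal-type isotypes were Tubb3, Tubb2a, Tubb2b and Tuba1a, and general ones Tubb5, Tuba1b, Tuba1c and Tubb6. All members were named, the other tubulin genes in full, and up to 4 called genes of each list of tubulin partners and of the neuron markers. Ttc5, Tbcd, Tbce, Stk16 and the BIC entry were added after their values were seen. Neuron markers with no test or no finite fold, and Eno2, were also named with the results known. Called genes of the B lineage, macrophage and fibroblast lists were counted and not named. Sequence came from GENCODE M21 (GRCm38) and RefSeq GRCm38.p6, not mm9, by symbol. Per gene the complete coding transcript with the longest coding sequence was used, and identities came from global alignments in Biopython 1.88.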

Additional observations from a re-analysis of the deposited data

How the results depend on the processing

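The 7 isotypes called lower became 6 at an adjusted p under 0.01 (without Tuba1a) and 5 under Benjamini-Yekutieli adjustment (without Tuba1a and Tuba1c). They became 3 under Bonferroni adjustment, by construction stricter, namely Tubb5, Tuba1b and Tuba4a, so Tubb3 and Tuba8, with the lowest folds, did not pass it. At an adjusted p under 0.1, or with only finite folds adjusted, 7 were called. The 2101 genes called in all became 1145 at 0.01, 291 under Bonferroni and 864 under Benjamini-Yekutieli, each stricter by construction, and 2798 and 2214 under the other settings. The neuronal-type minus general difference of 1.15 on the log2 scale became 1.85 without Tubb3 and reversed to -0.79 with Tuba8 and Tuba4a added and to -0.71 with means. Among settings chosen after seeing the data, it was 1.87 with Tubb4 added to the neuronal-type and Tubb2c to the general isotypes, and it reversed to -7.83 among isotypes that share under 1% of 50-base stretches with other genes, which leaves Tubb3 against Tubb5 and Tubb6. With means the classes hold the same genes and only the summary differs, while the other settings change which genes a class holds. No paired analysis was possible because the deposited table has no value per sample, and for the same reason no replicate could be left out in turn. Depth per sample is unknown, so the precision of a single tumour cannot be given.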
